A study of Mus musculus with 9 samples.

Results

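The 10 genes described here are Ptn, Thbs1, Stc1, Enpp2, Ogn, Scara5, Syt13, Cdon, Limch1 and Rab3il1. They were chosen by their measured values, as genes that were low in lung carcinoma cells kept with Th9 cells and not in the same cells kept with Th17 cells, out of 19305 genes listed in either of 2 expression tables. The choice used both contrasts, so the differences of the 10 genes are given as a description, with no test.

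The cells were LLC1, a mouse Lewis lung carcinoma line, and the study addresses how helper T cell subsets act on lung cancer cells. LLC1 cells were cultured for 24 h in direct contact with 1 of 3 kinds of T cell, Th0, Th9 or Th17 by label, at 1 T cell per LLC1 cell. Cells carrying CD4 were then removed by sorting, and total RNA of the remainder was sequenced in 3 libraries per group, 9 in all. All 3 groups therefore contained T cells, and Th0, T cells not assigned to either subset, served as the reference. The labels call the subsets artificially generated and leave unstated whether a group's libraries were grown as separate cultures, so the spread between them may be technical. No library of LLC1 cells without T cells was analysed here. Values are normalized read counts per gene, which the authors scaled separately for a table with Th9 and a table with Th17; each table holds the Th0 libraries, and every comparison was made within a table.

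Pleiotrophin (Ptn), thrombospondin 1 (Thbs1), stanniocalcin 1 (Stc1), osteoglycin (Ogn) and autotaxin (Enpp2) are proteins that cells release, and tumour and stromal cells use such proteins to signal to their surroundings and to build matrix. Pleiotrophin is a heparin-binding growth factor, thrombospondin 1 a matrix glycoprotein that binds CD47 and integrins, stanniocalcin 1 a glycoprotein hormone, osteoglycin a small leucine-rich proteoglycan, and autotaxin the enzyme that makes lysophosphatidic acid. Scara5 is a scavenger receptor that takes up ferritin, Syt13 an atypical synaptotagmin of membrane traffic, and Cdon a cell surface co-receptor for Hedgehog ligands. Limch1 is an actin-binding protein that activates non-muscle myosin II, and Rab3il1 is an exchange factor for Rab GTPases; both work inside the cell.

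The gene ontology terms in the table with Th9 placed Ptn, Stc1, Enpp2 and Ogn in the extracellular space, and Enpp2, Scara5, Syt13 and Cdon among integral membrane proteins. Limch1 and Rab3il1 carried no term for either place, so the description as secreted and membrane genes did not hold for these 2. Thbs1 carried no term at all, although its product is a secreted protein. Among the 9897 tested genes with any term, 4.95% carried the extracellular space term and 23.1% the integral membrane term.

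The 10 genes lay on 8 chromosomes in the mouse build mm10 (GRCm38) used by the tables. RefSeq promoter windows of the build GRCm38.p6, reaching from 250 bases before to 50 bases after a start site, were matched within 500 bases of the listed gene start for Ptn, Ogn, Limch1 and Rab3il1. They are shown as the promoter windows matched for the 10 genes, 5′ to 3′ on the gene's strand, and capitals mark motif matches. The windows are chr6:36810130-36810429 (minus strand) for Ptn, chr13:49607765-49608064 (plus) for Ogn, chr5:66745639-66745938 (plus) for Limch1 and chr19:10001419-10001718 (plus) for Rab3il1.
Ptn: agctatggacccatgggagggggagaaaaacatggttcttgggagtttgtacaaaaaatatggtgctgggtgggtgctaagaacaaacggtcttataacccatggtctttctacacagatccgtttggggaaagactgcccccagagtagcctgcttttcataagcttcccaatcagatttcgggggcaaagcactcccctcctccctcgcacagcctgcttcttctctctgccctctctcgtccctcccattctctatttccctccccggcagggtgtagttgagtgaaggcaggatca
Ogn: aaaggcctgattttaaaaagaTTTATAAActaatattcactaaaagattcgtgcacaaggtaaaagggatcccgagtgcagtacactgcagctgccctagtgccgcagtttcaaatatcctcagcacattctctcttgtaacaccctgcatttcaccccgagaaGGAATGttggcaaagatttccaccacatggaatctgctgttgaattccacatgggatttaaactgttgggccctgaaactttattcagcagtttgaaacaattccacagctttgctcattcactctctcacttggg
Limch1: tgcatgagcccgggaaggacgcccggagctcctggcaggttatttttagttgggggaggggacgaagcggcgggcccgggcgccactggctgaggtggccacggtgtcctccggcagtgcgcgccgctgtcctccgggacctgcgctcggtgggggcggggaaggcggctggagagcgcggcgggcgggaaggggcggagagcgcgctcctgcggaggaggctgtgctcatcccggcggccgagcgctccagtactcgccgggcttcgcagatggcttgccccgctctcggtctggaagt
Rab3il1: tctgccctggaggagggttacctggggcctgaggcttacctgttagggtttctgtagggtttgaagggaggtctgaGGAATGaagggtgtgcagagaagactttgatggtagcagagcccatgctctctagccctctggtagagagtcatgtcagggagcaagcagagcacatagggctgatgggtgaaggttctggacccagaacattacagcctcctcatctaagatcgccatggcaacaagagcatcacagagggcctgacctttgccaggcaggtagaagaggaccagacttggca

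The 4 windows differed in composition. The Limch1 window had 72.7% G and C, against 54.3% for Rab3il1, 52.0% for Ptn and 42.3% for Ogn, beside a median of 52.7% over 32851 promoters (quartiles 45.7% and 61.7%). The TEAD motif GGAATG was present in the Ogn window, 86 bases before the start, and in the Rab3il1 window, 174 bases before it, and 14.7% of all promoters held it. The TATA motif TATAAA was present in the Ogn window alone, as overlapping matches on both strands 229 and 227 bases before the start, and 13.6% of all promoters held it. On either strand, none of the 4 windows held the AP-1 motif TGACTCA (5.20% of all promoters), the CRE motif TGACGTCA (1.79%), the STAT motif TTCNNNGAA (8.30%), the E-box CACCTG (20.2%), the SMAD motif CAGACA (21.0%), the GLI motif GACCACCCA (0.253%), a kappa B site (8.46%) or a CArG box (1.63%). No motif searched was therefore common to the 4 windows.

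Depth, as the sum of approximate reads, ran from about 12719784 (Th0 replicate 3) to about 17503909 (Th17 replicate 2) per library. In Th0 replicate 1, 31.1% of the summed values came from mt-Rnr1, mt-Rnr2 and Gm26917, against 14.9% to 21.8% in the other 8 libraries, so results are also given without that library. Tests were run on genes whose mean in a table's 6 libraries reached 10, using limma-trend on log2(value + 1), with Benjamini-Hochberg adjustment over all genes tested and a call at an adjusted p under 0.05. With Th9, 1716 of 14475 genes (11.9%) were called lower than with Th0 and 1937 (13.4%) higher. With every library set to the same total the counts were 794 lower and 2252 higher, so that the lower calls made up 26.1% of calls in place of 47.0%. With those 3 RNA genes left out of the total, the counts were 1516 lower and 2481 higher. Without Th0 replicate 1 they were 2742 lower (19.1%) and 2594 higher (18.1%).

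**Figure D1:**
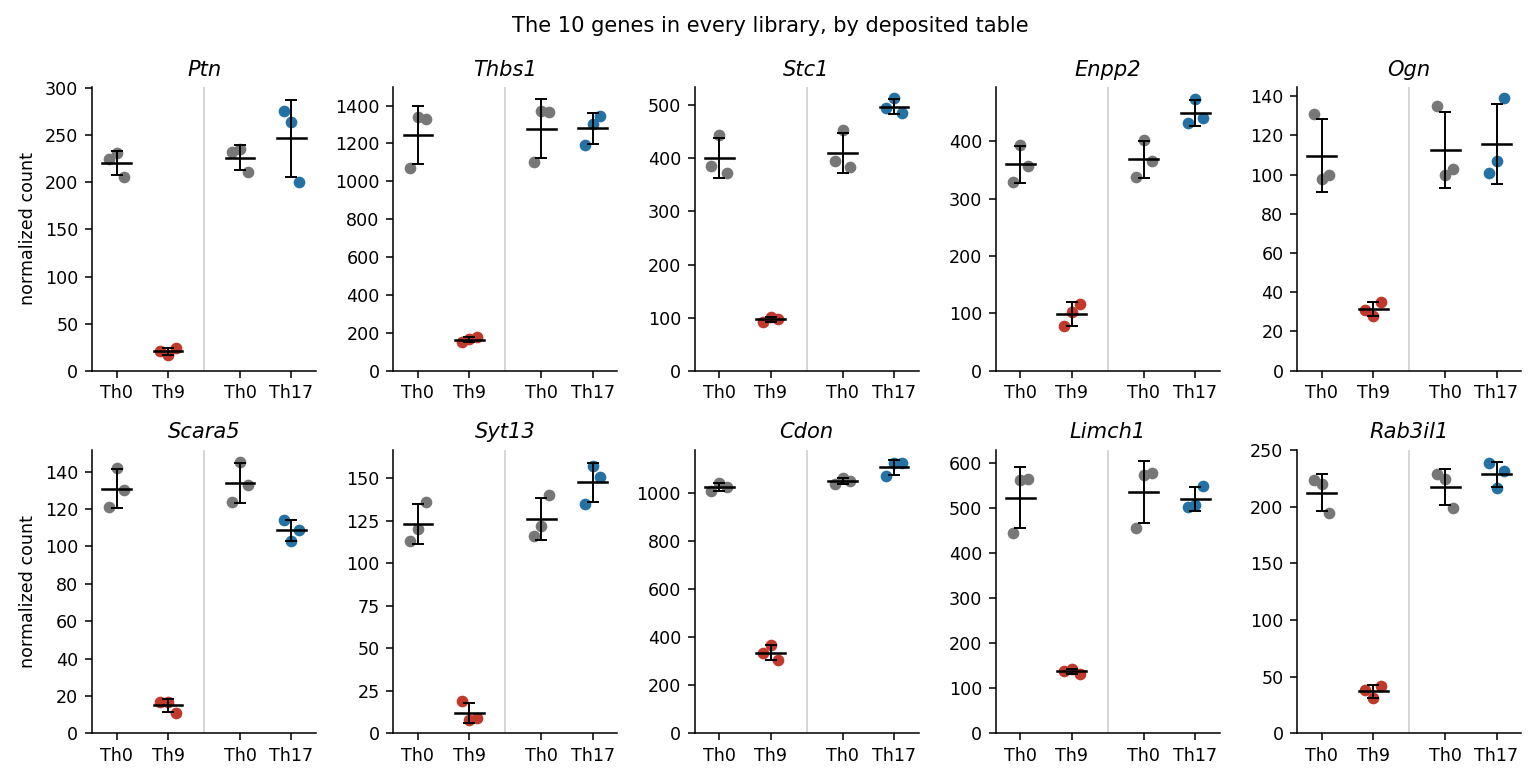
Normalized counts (linear y axes from 0) of the 10 genes, 1 panel per gene and 1 point per library, with the table with Th9 left of the grey line and the table with Th17 right of it; bars are the mean ± SD of 3 libraries. For each gene the 3 Th9 points sit below all Th0 points, while the Th17 means are between 81.1% and 122% of Th0.

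Of the genes for secreted proteins, Ptn was lowest with Th9 relative to Th0. Ptn (ENSMUSG00000029838, chr6:36714929-36810220, minus strand) had normalized counts of 225, 231 and 206 with Th0 and of 21, 17 and 24 with Th9. The groups lay far apart, and the mean went from 221 ± 13.1 to 20.7 ± 3.51 (SD, n = 3 in each group), or 9.37% of the Th0 level. Its log2 difference was -3.37 (SE 0.18), the 3rd most negative of the 14475 genes tested.

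Thbs1 (ENSMUSG00000040152, chr2:118111876-118127133, plus strand) had counts of 1069, 1341 and 1329 with Th0 and of 150, 167 and 176 with Th9. The lowest Th0 library was therefore far above the highest Th9 library. Means were 1246 ± 154 and 164 ± 13.2 (SD, n = 3), 13.2% of the Th0 level, with a log2 difference of -2.91 (SE 0.11).

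Stc1 (ENSMUSG00000014813, chr14:69029289-69041401, plus strand) had counts of 385, 444 and 373 with Th0 and of 92, 101 and 97 with Th9. The Th9 libraries were close to each other and all below Th0. The mean with Th9 was 24.1% of that with Th0, and the log2 difference was -2.04 (SE 0.12).

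Enpp2 (ENSMUSG00000022425, chr15:54838898-54920146, minus strand) had counts of 328, 393 and 357 with Th0 and of 77, 102 and 117 with Th9, with no overlap. Its mean with Th9 was 27.5% of the Th0 level and its log2 difference -1.87 (SE 0.15). Ogn (ENSMUSG00000021390, chr13:49608071-49624500, plus strand) had counts of 131, 98 and 100 with Th0 and of 31, 28 and 35 with Th9. Th0 replicate 1 was the highest Ogn library, and all Th0 libraries were above all Th9 libraries. The mean went from 109.7 ± 18.5 to 31.3 ± 3.51 (SD, n = 3), 28.6% of the Th0 level, with a log2 difference of -1.77 (SE 0.19).

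The genes for proteins of the cell surface and of membrane traffic ran from a log2 difference of -3.35 (Syt13) to -1.61 (Cdon). The ferritin receptor gene Scara5 (ENSMUSG00000022032, chr14:65666403-65764826, plus strand) had counts of 121, 142 and 130 with Th0 and of 17, 17 and 11 with Th9. Its mean with Th9 was 11.5% of the Th0 mean, and the log2 difference was -3.07 (SE 0.22). Syt13 (ENSMUSG00000027220, chr2:92915098-92956058, plus strand) had counts of 113, 120 and 136 with Th0 and of 19, 8 and 9 with Th9. Replicate 1 of Th9 was above the other two, and the coefficient of variation within Th9 was 50.7%, the widest of any gene and group here. The mean was 9.76% of the Th0 level and the log2 difference -3.35 (SE 0.29), which rests on as few as about 8 reads in a library.

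Cdon (ENSMUSG00000038119, chr9:35421128-35507652, plus strand) fell least of the 10 genes. Its counts were 1010, 1042 and 1025 with Th0 and 336, 367 and 306 with Th9. The means were 1026 ± 16.0 and 336 ± 30.5 (SD, n = 3), so 32.8% of the Th0 level remained with Th9, at a log2 difference of -1.61 (SE 0.09). The Th0 libraries of Cdon differed by 1.56% (coefficient of variation), the narrowest spread among the 10 genes.

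The genes for both intracellular proteins lay between these extremes. Limch1 (ENSMUSG00000037736, chr5:66745827-67057158, plus strand) had counts of 444, 561 and 563 with Th0 and of 138, 143 and 132 with Th9. Th0 replicate 1 was the lowest Th0 library but stood far above Th9, and the log2 difference was -1.91 (SE 0.12), at 26.3% of the Th0 level. Rab3il1 (ENSMUSG00000024663, chr19:10001669-10038380, plus strand) had counts of 223, 220 and 194 with Th0 and of 38, 31 and 42 with Th9. Its mean with Th9 was 17.4% of the Th0 mean, and its log2 difference was -2.50 (SE 0.16).

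In all 10 genes the Th9 libraries lay below all Th0 libraries, as they did in 19.2% of all genes tested (above all Th0 libraries in 21.4%), and all 10 were among the genes called lower (11.9%). Both counts follow from how the genes were chosen. The median log2 difference was -2.27, beside -0.01 over all genes tested, whose 5th and 95th percentiles were -0.72 and 0.85. From the largest reduction on, Ptn, Syt13, Scara5 and Thbs1 followed each other by less than 2 standard errors of the difference, as did Stc1, Limch1, Enpp2, Ogn and Cdon. Rab3il1 stood between these runs, 0.41 (SE 0.20) on the log2 scale from Thbs1 and 0.46 (SE 0.20) from Stc1. Only neighbours in this order were compared, so the ends of a run can lie further apart than 2 standard errors. The standard error of each gap treated both genes as independent, although they were measured in the same libraries. Without Th0 replicate 1 the 10 differences ran from -3.40 to -1.62, with a median of -2.26. In bulk RNA, fewer cells that express a gene and less RNA per cell cannot be told apart.

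These 10 genes were part of a larger population with the same calls. Of the 14113 genes tested in both tables, 1677 were called lower with Th9 and not called lower with Th17, and 49 of these had a log2 difference at or below that of Cdon. A Th0 mean of at least 100, a limit chosen after the values were seen, left 18 genes: the 10 described and 8 others, Col6a2, Tgfbi, Col6a1, Loxl2, E230020D15Rik, Tle2, Adam33 and Kif5c. Cdon was the last of these 18 at -1.61, and the next genes above that level were Synpo2 at -1.56, Col7a1 at -1.54 and Plat at -1.53. The condition on Th17 removed few of the 1716 genes called lower with Th9, since 0.39% of genes tested were called lower with Th17. Lack of a call does not show an unchanged level. With Th17 the 18 genes ran from -0.30 to 0.29, with Synpo2 at -0.33, Col7a1 at -0.35 and Plat at 0.20.

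The level of a gene, as opposed to its difference, was compared per length. Per kilobase of exon, Thbs1 was the most abundant of the 10 with Th0, at 205 normalized counts, followed by Cdon at 133 and Stc1 at 95.5. Ptn (64.3), Enpp2 (62.2), Limch1 (50.9) and Ogn (42.7) were in the middle, and Syt13 (32.7), Rab3il1 (30.3) and Scara5 (21.5) at the low end. This placed Thbs1 at the 85.9th percentile of listed genes and Scara5 at the 43.1st, so the 10 genes ranged from moderately to highly expressed in the Th0 libraries.

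With Th17, the same genes stayed near Th0. Of 14342 genes tested, 56 (0.39%) were called lower than with Th0 and 170 (1.19%) higher. Values of the 10 genes in this comparison were also used to choose them. The median log2 difference of the 10 was 0.07, from -0.30 to 0.29, and 8 means were above Th0 and 2 below. All Th17 libraries lay above all Th0 libraries in 3 of the 10 genes and below them in 1, beside 12.8% and 10.6% of all genes tested. The Th9 and Th17 comparisons share their Th0 libraries, so their values are set side by side only. Without Th0 replicate 1, 1378 genes (9.70%) were called lower and 974 (6.85%) higher with Th17, and the differences of the 10 genes ran from -0.35 to 0.26, with a median of 0.12.

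**Figure D2:**
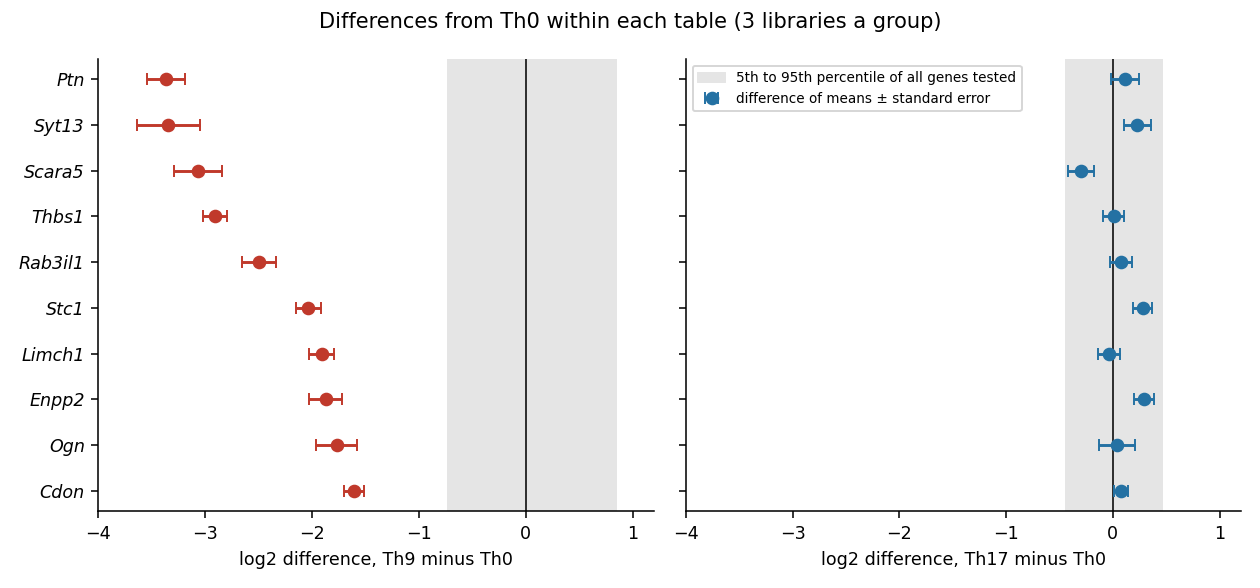
Log2 differences from Th0 (x axis, log2 of normalized count + 1) of the 10 genes with Th9 and with Th17, left and right, with standard errors as bars and the 5th to 95th percentile of all genes tested in grey. Th9 values run from -3.37 to -1.61, and Th17 values from -0.30 to 0.29.

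For the secreted proteins, Ptn had 276, 264 and 200 with Th17 against 232, 236 and 211 with Th0, and the groups overlapped (log2 difference 0.11, SE 0.13). Thbs1 had 1191, 1300 and 1346 against 1100, 1370 and 1364, and its mean was 100.1% of that with Th0 (log2 difference 0.01, SE 0.10). The growth factor gene and the matrix protein gene, which were among the most strongly reduced with Th9, thus had overlapping groups with Th17. Ogn had 101, 107 and 139 against 135, 100 and 103 (log2 difference 0.04, SE 0.17), again with overlap.

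Stc1 and Enpp2 lay above Th0 with Th17 in every library. Stc1 had 495, 513 and 485 with Th17 and 396, 453 and 383 with Th0, or 121% of the Th0 mean (log2 difference 0.28, SE 0.09). Enpp2 had 432, 474 and 441 against 337, 402 and 366, or 122% (log2 difference 0.29, SE 0.09). These differences are in the opposite direction from those with Th9 and far smaller.

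Of the membrane genes, Scara5 was the exception to the description as not lower with Th17. It had 114, 103 and 109 with Th17 and 124, 145 and 133 with Th0, so that all Th17 libraries were below all Th0 libraries, at 81.1% of the Th0 mean (log2 difference -0.30, SE 0.12). With libraries weighted by their quality, its difference was -0.32, and those of Stc1 and Enpp2 were 0.33 and 0.28. In that fit Scara5 was among 1789 genes called lower with Th17, and Stc1 and Enpp2 among 1572 called higher. Without the weights 56 and 170 genes were called, and none of the 10 was among them. Cdon had 1074, 1127 and 1127 with Th17 against 1039, 1065 and 1051, a small shift above Th0 with no overlap (log2 difference 0.08, SE 0.07). Syt13 had 135, 157 and 151 against 116, 122 and 140 (log2 difference 0.23, SE 0.13), with overlap.

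Limch1 had 502, 506 and 549 with Th17 against 456, 573 and 578 with Th0, or 96.9% of the Th0 mean (log2 difference -0.04, SE 0.10). Rab3il1 had 238, 216 and 231 against 229, 224 and 199 (log2 difference 0.07, SE 0.10). Both intracellular genes overlapped between Th17 and Th0.

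Genes related to the 10 by known function were examined in 10 lists that hold none of them. Together the lists had 142 genes, of which 90 were tested, and with Th9 14 (15.6%) were called lower and 16 (17.8%) higher, beside 11.9% and 13.4% of all genes. Their median log2 difference was -0.04. With Th17, 0 of 90 were called lower and 1 higher by limma-trend, with 1 lower and 13 higher at an unadjusted p under 0.05, which 8.61% and 9.68% of all genes reached. Without Th0 replicate 1, 25 of 89 (28.1%) were called lower and 18 (20.2%) higher with Th9, beside 19.1% and 18.1% of all genes, and 10 (11.2%) lower and 9 (10.1%) higher with Th17, beside 9.70% and 6.85%. In that setting the genes called lower with Th17 were Calr, Myh9, Myl12b, Myl6, Ncl, Rab11fip3, Sdc1, Sdc4, Smo and Thbs2. All of these were then called lower with Th9 too. Those called higher with Th17 were Ecm2, Fth1, Ftl1, Gli3, Hhat, Hhip, Itga6, Neo1 and Sdc2. In the sentences that follow, adjusted p-values are limma-trend's with Benjamini-Hochberg adjustment over all genes tested, and differences are on the log2(value + 1) scale.

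**Figure D3:**
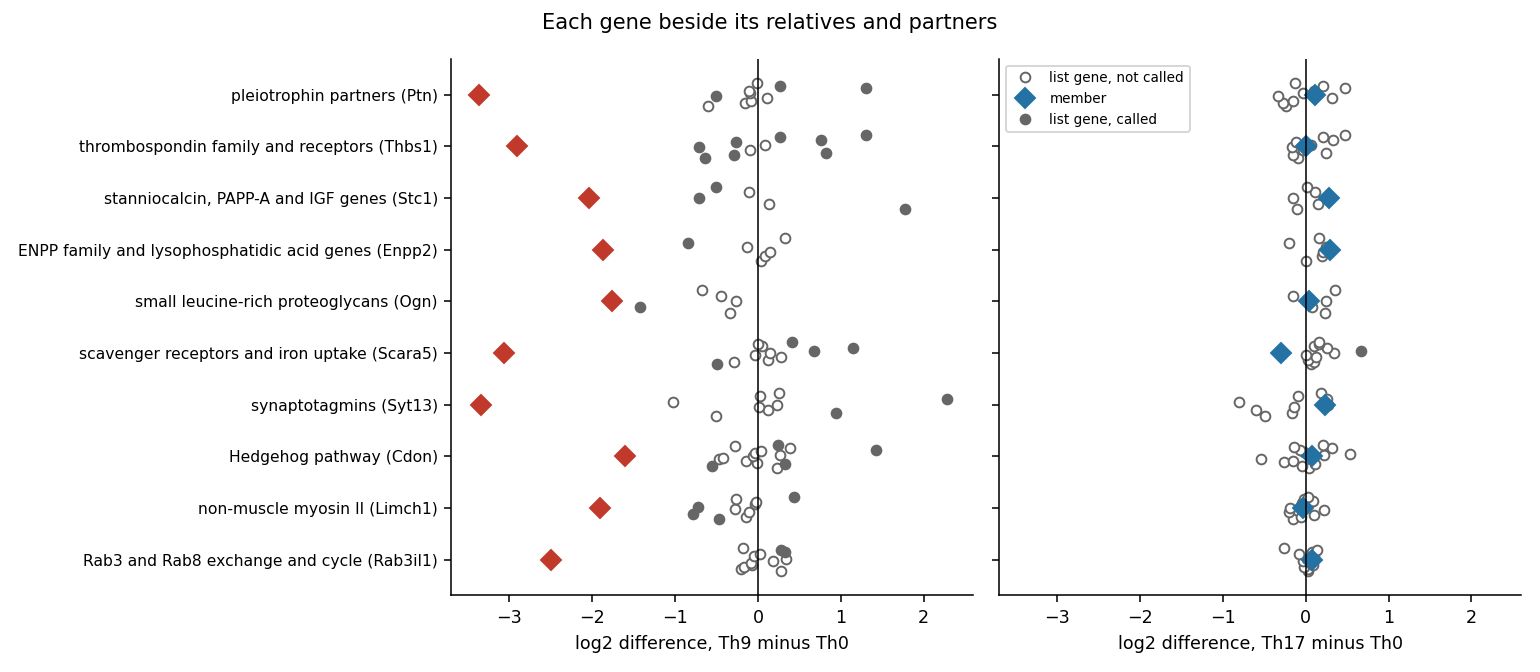
Log2 differences from Th0 (x axis, log2 of normalized count + 1) with Th9, left, and Th17, right, of the tested genes in each of the 10 lists, as circles that are filled where called, and of the gene each list belongs to, as a diamond (called a member in the key). With Th9 each of the 10 diamonds lies left of every circle of its list, which largely follows from the choice of these genes for low values with Th9.

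Pleiotrophin binds syndecans and integrin receptors. Of its 10 tested partners, 1 was called lower and 2 higher with Th9 (median -0.09). Ncl and Sdc1 were also called lower without Th0 replicate 1, which made 3 lower and 2 higher. With Th17 in that setting, Ncl, Sdc1 and Sdc4 were called lower and Sdc2 higher. The integrin subunit Itgb3 rose from 38 ± 5.57 to 96 ± 19.7 (SD, n = 3; difference 1.31, adjusted p = 0.00062). Sdc4, syndecan 4, fell by 0.51 (adjusted p = 0.0445), and Itgav, the integrin partner of Itgb3, rose by 0.27 (adjusted p = 0.048). The Sdc4 groups overlapped. Without any 1 library other than Th0 replicate 1, Sdc4 was not called (differences -0.54 to -0.35, adjusted p = 0.101 to 0.175), and Itgav was not called without Th0 replicate 3 or any 1 Th9 library (0.24 to 0.31, adjusted p = 0.089 to 0.199). With the same total per library neither was called (-0.40 and 0.38, adjusted p = 0.179 and 0.0608). Mdk, midkine, the close relative of Ptn, had 16.3 with Th0 and 10.3 with Th9 and was not called (-0.61, adjusted p = 0.196).

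Among 10 tested thrombospondin relatives and receptors, 4 were called lower and 4 higher (median -0.01). Thbs2, the thrombospondin closest to Thbs1, fell from 6840 ± 657 to 4364 ± 120 (SD, n = 3; -0.64, adjusted p = 0.00044). Its reduction was far smaller than the -2.91 of Thbs1. Without Th0 replicate 1, Thbs2 and Calr were called lower with Th17 too, and Itga6 higher. The thrombospondin receptor gene Cd47 rose from 1655 ± 187 to 2913 ± 39.0 (0.82, adjusted p = 6.2e-05), and the integrin subunit Itga6 rose from 3978 ± 323 to 6745 ± 460 (0.76, adjusted p = 0.00015). A further 3 genes, named after their values were seen, were called lower: Calr, the chaperone calreticulin, by -0.71 (adjusted p = 0.00527), Itga3 by -0.27 (0.0276) and Thbs3 by -0.29 (0.0445). Thbs3 was not called without any 1 of the 6 libraries (differences -0.35 to -0.24, adjusted p = 0.0521 to 0.185), nor Itga3 on leaving out replicate 2 or 3 of Th0 or replicate 1 or 2 of Th9 (-0.28 to -0.22, adjusted p = 0.0574 to 0.175). With the same total per library neither was called, at -0.16 for Itga3 (adjusted p = 0.382) and -0.19 for Thbs3 (adjusted p = 0.283).

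The stanniocalcin and insulin-like growth factor genes gave 2 lower and 1 higher of 5 tested (median -0.11). Stc2, the paralog of Stc1, rose from 28 ± 9.17 to 95 ± 4.58 (SD, n = 3; 1.78, adjusted p = 0.00025), so the 2 stanniocalcins differed from Th0 in opposite directions. Igfbp6, a binding protein of these growth factors, fell from 317 ± 43.0 to 193 ± 7.77 (-0.71, adjusted p = 0.00116). The receptor gene Igf2r fell by 0.50 (adjusted p = 0.00252); at equal library totals it was at -0.39 and not called (adjusted p = 0.0729). In the autotaxin list, 1 of 6 tested genes was called: Plpp1, a phosphatase that breaks down lysophosphatidic acid, fell from 246 ± 19.5 to 136 ± 12.5 (-0.85, adjusted p = 0.00038). The receptors Lpar1 (0.09), Lpar2 (0.14) and Lpar6 (-0.14) were not called. Of 5 small leucine-rich proteoglycans tested, Omd, osteomodulin, was the gene called lower, from 27 ± 12.1 to 9 ± 2 (-1.42, adjusted p = 0.0144; -1.27 and 0.0574 without Th9 replicate 3). Omd and Aspn and Ecm2 lie beside Ogn on chromosome 13, and Aspn (-0.27) and Ecm2 (-0.68) were not called. Bgn was also called lower without Th0 replicate 1.

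Of 11 tested scavenger receptor and iron genes, 1 was called lower and 3 higher (median 0.11). Scara3, a relative of Scara5, fell from 837 ± 77.4 to 592 ± 40.1 (SD, n = 3; -0.50, adjusted p = 0.00266). The iron transporter gene Slc11a2 rose from 123 ± 22.7 to 270.3 ± 30.9 (1.14, adjusted p = 0.00017). Ftl1, the light chain of ferritin, the ligand of Scara5, rose from 257 ± 44.1 to 411 ± 60.6 (0.68, adjusted p = 0.0046). Ncoa4, the receptor that delivers ferritin for degradation, rose by 0.40 (adjusted p = 0.038), a call lost without any 1 library other than Th0 replicate 1, at differences of 0.38 to 0.41 (adjusted p = 0.0768 to 0.122). Colec12 was also called lower without Th0 replicate 1. Ftl1 was also the list gene called with Th17 (264 ± 45.1 to 416 ± 30.6; 0.67, adjusted p = 0.0304), and that call was lost without Th0 replicate 3 or any 1 Th17 library, at differences of 0.52 to 0.73 (adjusted p = 0.0829 to 0.195).

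Of 9 synaptotagmins tested, 0 were called lower by limma-trend and 2 higher. Syt17 rose from 19 ± 6.08 to 93.3 ± 6.43 (SD, n = 3; 2.28, adjusted p = 3.7e-05), opposite to Syt13. Syt7, a calcium sensor of exocytosis, rose by 0.94 (adjusted p = 0.0173), and its call was lost on leaving out replicate 1 or 3 of Th9 or replicate 2 of Th0, at differences of 0.75 to 0.95 (adjusted p = 0.0545 to 0.1). Esyt2 was also called higher without Th0 replicate 1. In the Hedgehog pathway of Cdon, 1 of 15 tested genes was called lower and 3 higher. Gas1, another Hedgehog co-receptor, fell from 108 ± 8.96 to 73.3 ± 7.23 (-0.56, adjusted p = 0.0204), and the receptor gene Ptch1 rose by 0.33 (0.0207), the ligand gene Dhh by 1.42 (0.029) and Neo1, a relative of Cdon, by 0.24 (0.0494). Each of these 4 calls was lost on leaving out any of 4 libraries in turn, with the difference about as large: Gas1 was then at -0.60 to -0.47 (adjusted p = 0.0545 to 0.096; Th0 replicate 2 or 3, Th9 replicate 1 or 2). Without Th0 replicate 3 or any 1 Th9 library, Ptch1 was at 0.29 to 0.35 (adjusted p = 0.0513 to 0.119), Dhh at 1.35 to 1.51 (0.0534 to 0.117) and Neo1 at 0.18 to 0.25 (0.104 to 0.194). With the same total per library Gas1 was at -0.45 (adjusted p = 0.0727). Smo was also called lower and Hhat higher without Th0 replicate 1. Boc, the closest relative of Cdon, was at 0.23, and the transcription factors Gli1 (-0.47), Gli2 (-0.42) and Gli3 (-0.06) were not called.

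In the non-muscle myosin II list of Limch1, 3 of 10 tested genes were called lower and 1 higher (median -0.20); without Th0 replicate 1, 8 were called lower, the others being Myh10, Myl12a, Myl12b, Rock1 and Rock2. Mylk, the kinase of myosin light chains, fell from 534 ± 50.3 to 322 ± 10.1 (SD, n = 3; -0.73, adjusted p = 0.00023), and the light chain gene Myl6 from 1603 ± 297 to 918 ± 58.3 (-0.79, adjusted p = 0.00065). With Th17, Myh9, Myl12b and Myl6 were called lower without Th0 replicate 1, 3 of 11 tested. The heavy chain gene Myh9 fell by 0.47 with Th9 (adjusted p = 0.0298). Its call was lost without any 1 library other than Th0 replicate 1, at differences of -0.48 to -0.42 (adjusted p = 0.056 to 0.147), and at equal library totals (-0.37, adjusted p = 0.252). Lmo7, a relative of Limch1, rose by 0.43 (adjusted p = 0.0129), and without Th9 replicate 1 or 2 it was at 0.43 and 0.42 and not called (adjusted p = 0.0584 and 0.0613). Of 12 tested genes of the Rab3 and Rab8 cycle, 0 were called lower by limma-trend and 2 higher: Rab3gap2 by 0.32 (adjusted p = 0.018) and Madd by 0.28 (0.0337). Rab11fip3 and Rab8b were called lower without Th0 replicate 1, which made 2 in each direction. The call of Rab3gap2 was lost without Th0 replicate 3 or any 1 Th9 library (differences 0.26 to 0.35, adjusted p = 0.0614 to 0.0848), and that of Madd without Th0 replicate 2 or any 1 Th9 library (0.23 to 0.30, adjusted p = 0.0622 to 0.176). Rab3ip, the paralog of Rab3il1, was at 0.28 and was not called (adjusted p = 0.0736).

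The genes most like the 10 were sought among 7057 genes in both tables with a plain symbol and a Th0 mean of at least 200. Likeness was Pearson's r over the 9 libraries to the mean profile of the 10 genes, each library taken relative to the Th0 mean of its own table, given as a description because the libraries are shared and the pattern is the one the 10 genes were chosen for. Col6a1, a chain of collagen VI, came first (r = 0.995), followed by Apcdd1, a membrane inhibitor of Wnt signalling (0.995), Phldb2, a cortical adaptor of microtubules (0.992), Efnb2, ephrin B2 (0.992), and Col6a2, a further chain of collagen VI (0.992). Col6a1 was at 1412 ± 25.7 with Th0 and 414 ± 27.4 with Th9, and Col6a2 at 483 ± 6 and 107 ± 13.1 (SD, n = 3). A high r does not need a large difference, and the log2 difference with Th9 was -1.77 for Col6a1, -1.52 for Apcdd1, -0.53 for Phldb2, -1.47 for Efnb2 and -2.17 for Col6a2. With Th17 these 5 genes lay between -0.07 and 0.09. Each of the 10 genes had an r to the mean of the other 9 from 0.975 (Ogn) to 0.996 (Thbs1), which follows from their choice for 1 shared pattern.

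Markers of other cells were read in the same libraries. The 15 T cell markers summed to 90 to 189 normalized counts with Th0 and to 1242 to 1741 with Th9, and 12 of 14 tested were called higher with Th9, among them Cd3g (5 to 317) and Ptprc (27.3 to 466), while the sorting marker Cd4 was at 12 with Th0 and 21 with Th9. With Th17 the same markers summed to 60 to 89, beside 90 to 179 with Th0 in that table, and 4 of 15 were not listed. The part of T cell RNA in the low values of the 10 genes with Th9 was not tested. Nor was its part in the differences of the list genes, such as the rise of Cd47.

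**Figure D4:**
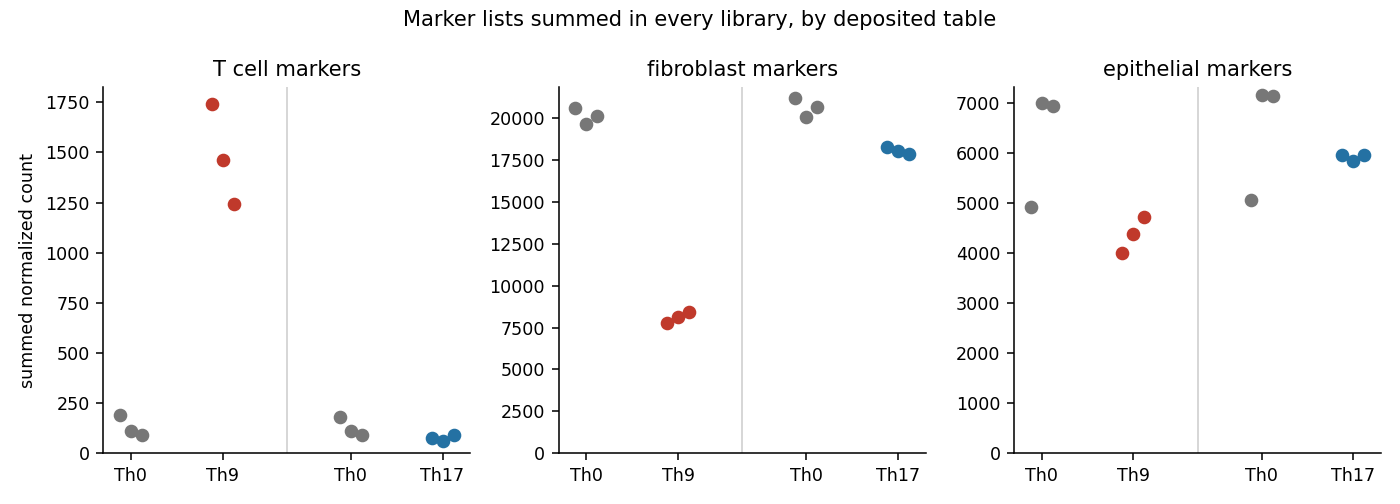
Summed normalized counts (linear y axes from 0) of 3 marker lists, T cell, fibroblast and epithelial, in every library of both tables, 1 point per library. T cell markers are higher in the Th9 libraries (1242 to 1741) than in Th0 (90 to 189), and fibroblast markers are lower (7785 to 8417 against 19657 to 20575).

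The LLC1 label was read against epithelial and fibroblast markers. The epithelial markers summed to 4924 to 7006 with Th0 and 4006 to 4721 with Th9, almost wholly from the keratins Krt18 and Krt8, while Cdh1, Epcam and Nkx2-1 were not listed. The fibroblast markers summed to 19657 to 20575 with Th0, 7785 to 8417 with Th9 and 17850 to 18254 with Th17, and 3 of 6 tested were called lower and 1 higher with Th9. Nearly all of this sum was Col3a1, a fibrillar collagen chain (19447 ± 507 with Th0 and 7539 ± 325 with Th9; -1.37). Of the others, Pdgfra was at 559 and 415 (-0.42), Col1a1 at 18.3 and 5, and Cd34 rose from 44 to 119, while Mfap5, Tcf21, Fap and Col1a2 were not listed in the table with Th9. B cell markers summed to 41 to 93 with Th0 and 42 to 54 with Th9, myeloid markers to 167 to 311 and 208 to 263, and endothelial markers to 5 to 13 and 30 to 49. Within the myeloid list Lyz2 fell from 19.7 to 1 (-3.36, adjusted p = 0.00163) and Cd14 rose from 34.7 to 62.7 (0.86, adjusted p = 0.0135), while most of the sum was Cd68 (149 and 143). The 1 endothelial marker tested, Pecam1, rose from 9.67 to 34.3 (1.80, adjusted p = 0.0037). The part of these cells in the values of the 10 genes and of the list genes was not tested.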

How the data were processed

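LLC1 total RNA gave 9 libraries. RNA was isolated on columns with DNase digestion and 1 µg entered a stranded total RNA kit, per the labels' protocols. The submitters' processing notes name STAR 2.4.0a, featureCounts 1.4.5-p1 (Subread), DESeq2 1.62 and the builds mm10 and GRCm38, with no role or order. Whether counting used the strand is not given in the sources used here, so overlapping genes, antisense genes and paralogs can share reads.

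The values deposited by the authors are scores: read counts scaled per library and rounded to whole numbers, in separate tables of 18816 (Th9) and 18511 (Th17) genes. Each Th0 library differed between the tables by a single factor (1.03, 1.02 and 1.03). This left 3, 5 and 6 of the 18022 genes in both tables further away than 1 plus the rounding error of the scaled value. The same steps gave approximate size factors and reads. No column of sample values was left unused (0).

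Within each table, log2(value + 1) was tested with limma-trend (limma 3.58.1, R 4.3.3; group as the only term; mean of at least 10 over 6 libraries; Benjamini-Hochberg over all genes; tested on simulated data). Standard errors of differences come from these fits. Count-based tests were not used, since the scores are not counts. Exon lengths are unions from GENCODE M21. RefSeq promoters (GRCm38.p6) were matched by symbol for 5 of the 10 genes; the one for Cdon starts 30948 bases from the listed start and was not used.

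The 10 genes and the related lists were chosen with earlier results of these data known. From each list, up to 4 genes with the smallest adjusted p among those called in either comparison were named, the 10 genes always, and the 5 genes most like them; other named genes were chosen after their values were seen. Gene ontology terms come from the deposited table and were read after the files had been seen. Replicate numbers are shared between groups and were not used to pair the libraries. Deviations of same-numbered libraries correlated at 0.111, -0.011 and 0.145 for Th9, and at -0.055, -0.079 and 0.039 for Th17. Those of differently numbered libraries correlated at -0.135 to 0.04 for Th9 and at -0.047 to 0.094 for Th17. With so few libraries, these values cannot settle whether the numbers pair them. Alternatives were another pseudocount (5), filters (none, mean of at least 50), scalings, array weights, a replicate block and leaving out each library.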

Additional observations from a re-analysis of the deposited data

How the results depend on the processing

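Of 90 differences of the 10 genes with Th9, taken under part of the alternatives, 86 were within 1 replicate SD of the value given. Leaving out 1 of a group's 3 libraries moves its mean by less than that group's SD. Such fits could hardly exceed a limit of 1 SD, so the count does not measure how stable the differences are. The direction of the differences is fixed by the choice of genes. The counts over all genes changed under several alternatives. With the same total per library, 794 genes were lower with Th9 and 20 with Th17. With the same total without 3 RNA genes, 1516 were lower and 2481 higher with Th9, and 102 lower and 345 higher with Th17. Array weights gave 3326 lower and 3302 higher with Th9 and 1789 lower and 1572 higher with Th17. Leaving out 1 library gave 838 to 2742 lower and 1015 to 2594 higher with Th9, and 2 to 1378 lower and 14 to 974 higher with Th17; the highest counts came without Th0 replicate 1, and the lowest with Th17 without Th17 replicate 3. The cause was not tested. With the replicate number as a block, 1962 were lower and 2114 higher with Th9, and 76 and 186 with Th17. Neo1 was then not called (limma-trend adjusted p = 0.0551).

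Of 31 calls of list genes over both comparisons, 14 held under every alternative, 17 were lost under at least 1 and 0 changed direction. Of those lost with the same total per library, Thbs3 was also not called without the 3 RNA genes in the total (-0.25, limma-trend adjusted p = 0.0984). Sdc4, Itgav, Igf2r, Itga3, Gas1 and Myh9 kept their calls in that setting. Of 20 list medians, 13 changed sign under at least 1 alternative. Rounding and about 8 reads in the lowest library limit Syt13. The planned protein features were not run.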

Other observations

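Scara5 and Stc1 lie on the same chromosome, 14, with 3.26 megabases and 19 tested genes between them. Of these 19, 8 (42.1%) were called lower with Th9 and 1 higher (limma-trend, adjusted p under 0.05), beside 11.9% and 13.4% of all genes. These genes were named after their values were seen. The interval is bounded by genes that were chosen for low values, and its counts were not tested. Clu, the secreted chaperone clusterin, went from 564 with Th0 to 256 with Th9 (log2 difference -1.13, adjusted p = 2.19e-05). Nefl and Nefm, neurofilament chains, went from 255 to 139 and from 154 to 89.7. Cdca2 and Esco2, genes of cell division, were at -0.54 and -0.35, and Kctd9 (-0.40), Dock5 (-0.25) and Scara3 (-0.50) were lower too. Esco2 and Dock5 were near the limit for a call (limma-trend adjusted p = 0.0416 and 0.0437). Apart from Scara3, the calls in this interval are not given here under the alternatives. Ptk2b, a focal adhesion kinase, was the gene called higher, from 96 to 180 (0.90). Thbs1 and Syt13, on chromosome 2, have 76 tested genes between them, of which 6 (7.89%) were called lower and 12 higher.

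Genes with the heparin binding term, which Ptn and Ogn carry, were called lower with Th9 in 17 of 56 cases (30.4%) and higher in 14 (25%). This was the highest share called lower among the terms read. Those with the extracellular space term were called lower in 79 of 490 (16.1%) and higher in 121 (24.7%). For the plasma membrane term the counts were 273 of 2103 (13.0%) lower and 458 (21.8%) higher. For the integral membrane term they were 245 of 2287 (10.7%) lower and 433 (18.9%) higher. Of all 14475 genes tested, with or without a term, 11.9% were called lower and 13.4% higher. The shares among the 9897 tested genes with any term are not given here. The lower counts include Ptn and Ogn for heparin binding, and Ptn, Stc1, Enpp2 and Ogn for extracellular space. They also include Enpp2, Scara5, Syt13 and Cdon for both membrane terms, and Stc1 for plasma membrane. These genes were chosen for low values with Th9. The counts of these terms were not tested against other genes.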
